A study of Homo sapiens with 16 samples.

Results

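Belinostat-only regions are stretches of open chromatin at which the peak list of U87 cells given belinostat alone held a peak and the lists of the other groups held none. They were chosen by the deposited peak calls themselves: peaks of the 4 lists on chromosomes 1 to 22 and X were merged wherever they overlapped by 1 bp or more, and 12343 of the 183659 merged regions (6.72%) held a belinostat peak and no other. U87 is an established human glioblastoma line, and open chromatin was mapped by NicE-seq, which nicks accessible DNA, lets a polymerase fill in biotinylated nucleotides there, and captures and sequences the labelled fragments. The 16 libraries form 4 groups of 4. Vehicle cells had DMSO, belinostat cells had 1 µM belinostat for 24 h, and AsiDNA cells had AsiDNA with DMSO. The combination cells had AsiDNA and 1 µM belinostat for 24 h. The labels give no dose for AsiDNA, and MTU87 and LTAU87 are the cells in their protocol text but U87 in the sample fields, so the kind of AsiDNA exposure is unclear. The libraries of a group share 1 list, so there is no spread between replicates, no p-value is given, and every interval is a Wilson 95% interval that covers counting error only. Read depth is unknown. Since cells were pooled within a library, fewer cells with an open site and less signal per cell cannot be told apart.

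Belinostat is a hydroxamate drug that blocks histone deacetylases, the enzymes that strip acetyl groups from histone tails. Acetylation weakens the hold of histones on DNA and recruits bromodomain proteins, and acetylated chromatin is generally more accessible. Most promoters of housekeeping genes lie in CpG islands, which are open in nearly every cell type, whereas many promoters of tissue-restricted genes are poor in CpG and open only in some cells. AsiDNA is a short double-stranded DNA that mimics a broken end and occupies repair proteins. The cell label was checked by gene ends, a gene counting as open where a peak lay at most 1000 bp from its start or end. Of 12 glioblastoma and mesenchymal genes, 11 were open in every list, including VIM, CD44, SOX2, EGFR and PDGFRA, and GFAP was open in none. CDKN2A, CDKN2B and MTAP, which U87 lacks, had no peak in any list. Among markers of other cell types, 2 of 4 T cell, 2 of 4 myeloid and 2 of 4 epithelial genes were open in every list, and no endothelial or B cell gene was. CD3D, MS4A1 and AIF1 had no peak at all.

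Where members covered promoters, the promoters were mostly poor in CpG. Promoter windows of 300 bases, from 250 before to 50 after the start, were taken from RefSeq (GRCh38.p14), printed 5′ to 3′ on the gene's strand, with CpG in capitals. SIGLEC16 and CAMP are the protein-coding genes among the 6 chosen by rule from the 8 promoters covered over all 300 bases, and LINC02128 is a long non-coding RNA gene with the same full cover. SIGLEC11 is shown because it is a near copy of SIGLEC16, and BEX1 because it is rich in CpG. SIGLEC11 and BEX1 were added after their values were seen.
SIGLEC16: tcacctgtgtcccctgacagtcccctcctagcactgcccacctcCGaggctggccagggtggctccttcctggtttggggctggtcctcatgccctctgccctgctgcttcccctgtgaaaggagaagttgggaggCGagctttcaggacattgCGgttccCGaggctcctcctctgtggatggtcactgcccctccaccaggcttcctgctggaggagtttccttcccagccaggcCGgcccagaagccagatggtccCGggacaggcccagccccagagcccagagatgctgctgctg
SIGLEC11: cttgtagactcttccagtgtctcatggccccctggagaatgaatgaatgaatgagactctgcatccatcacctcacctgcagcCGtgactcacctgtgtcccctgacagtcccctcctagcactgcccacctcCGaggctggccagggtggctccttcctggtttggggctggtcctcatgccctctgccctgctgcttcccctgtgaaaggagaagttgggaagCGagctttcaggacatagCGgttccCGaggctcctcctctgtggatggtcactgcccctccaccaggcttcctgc
CAMP: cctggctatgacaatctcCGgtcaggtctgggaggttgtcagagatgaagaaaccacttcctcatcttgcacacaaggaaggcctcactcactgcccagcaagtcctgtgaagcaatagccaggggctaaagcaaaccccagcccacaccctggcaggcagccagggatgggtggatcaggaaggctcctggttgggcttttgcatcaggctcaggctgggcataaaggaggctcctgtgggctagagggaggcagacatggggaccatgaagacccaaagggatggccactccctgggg
LINC02128: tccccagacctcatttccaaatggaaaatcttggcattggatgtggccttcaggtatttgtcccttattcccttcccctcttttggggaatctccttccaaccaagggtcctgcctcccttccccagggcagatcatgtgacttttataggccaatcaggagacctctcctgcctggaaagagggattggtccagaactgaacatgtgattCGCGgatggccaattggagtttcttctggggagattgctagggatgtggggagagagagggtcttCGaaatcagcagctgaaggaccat
BEX1: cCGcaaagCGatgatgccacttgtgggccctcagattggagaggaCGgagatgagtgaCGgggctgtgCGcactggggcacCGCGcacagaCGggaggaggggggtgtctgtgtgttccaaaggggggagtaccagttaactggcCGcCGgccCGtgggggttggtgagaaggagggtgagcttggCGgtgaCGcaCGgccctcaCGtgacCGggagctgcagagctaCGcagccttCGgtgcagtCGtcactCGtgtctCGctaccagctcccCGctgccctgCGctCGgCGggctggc

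SIGLEC16 and SIGLEC11 encode receptors of myeloid cells that bind sialic acid. The SIGLEC16 window is chr19:49969414-49969713 on the plus strand and lies inside a member at chr19:49969368-49969771, whose fold enrichment of 5.95 stood at percentile 48.2 of the belinostat list. Fold enrichment is throughout the value the authors' peak caller gave each peak over its local background, and it is used only to rank peaks within 1 list. The SIGLEC11 window, chr19:49961123-49961422 on the minus strand, had 269 of its 300 bases in a second member with a fold of 3.56. The starts of both genes are 8.49 kb apart and face opposite ways. Over 211 aligned bases 209 were identical (99.1%), so which copy the reads came from is uncertain for both members. The windows held 6 and 5 CpG, and the ratio of observed to expected CpG was 0.193 and 0.192.

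CAMP encodes the cathelicidin antimicrobial peptide of neutrophils and epithelia. Its window, chr3:48223245-48223544 on the plus strand, held 1 CpG, a ratio of 0.0395, and the member over it had a fold of 4.42 (percentile 28.6). The LINC02128 window, chr16:50859946-50860245 on the plus strand, held 3 CpG, a TATAAA and a CCAAT, and its member had a fold of 3.48 (percentile 12.5). BEX1, a gene of the brain-expressed X-linked family, differed: its window at chrX:103064122-103064421 on the minus strand held 25 CpG, a ratio of 0.769. The BEX1 member at chrX:103064089-103064418 had a fold of 6.60 (percentile 55.0), and the nearest peak of another list was 216 bp away.

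Over all members, 94 promoters of 89 protein-coding genes were touched, out of 22131 promoter windows for 15811 such genes in the table. The median CpG ratio of the 94 was 0.237, with quartiles of 0.147 and 0.372, and 71 of them (75.5%, interval 66.0 to 83.1) were below 0.4. Among all promoters 27.7% were that low, and among the 12651 promoters open in every list 7.66% were, with a median ratio of 0.845. Members cannot overlap a peak of another list, and of the 13661 promoters touched by any merged region only 10.5% were below 0.4. The gaps to all promoters and to those open in every list are therefore partly set by the rule. Regions found in 1 list only, which share that limit, were not alike in their low-CpG share. The 68 promoters under vehicle-only regions had a median of 0.55 and 36.8% (26.3 to 48.6) below 0.4, and the 129 under AsiDNA-only regions had 0.482 and 44.2% (35.9 to 52.8). Both intervals lie below that of the belinostat-only promoters. The 60 promoters under combination-only regions, with 68.3% (55.8 to 78.7), and the 115 under regions of both belinostat-treated groups, with 69.6% (60.6 to 77.2), had intervals that overlap it.

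The contrast with vehicle-only and AsiDNA-only promoters held away from peaks of other groups. With members within 500 bp of another list's peak left out, the low-CpG share was 78.2% (67.8 to 85.9) of 78 promoters, against 45.1% (32.3 to 58.6) of 51 for vehicle and 48.1% (38.8 to 57.5) of 106 for AsiDNA. When peaks under a −log10 q of 5 were dropped from every list, it fell to 59.1% (49.0 to 68.6) of 93 promoters, against 32.5% (20.1 to 48.0) of 40 for vehicle, 33.1% (26.2 to 40.8) of 157 for AsiDNA and 50.0% (38.4 to 61.6) of 68 for the combination. The enzyme nicks at CCA, CCG and CCT. Such sites, counted on both strands, had a median of 38.5 per window in belinostat-only promoters and 41.0, 42.0 and 41.5 in vehicle-only, AsiDNA-only and combination-only promoters, against 45.0 in promoters open in every list. The part of this difference in the result was not tested.

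**Figure D1:**
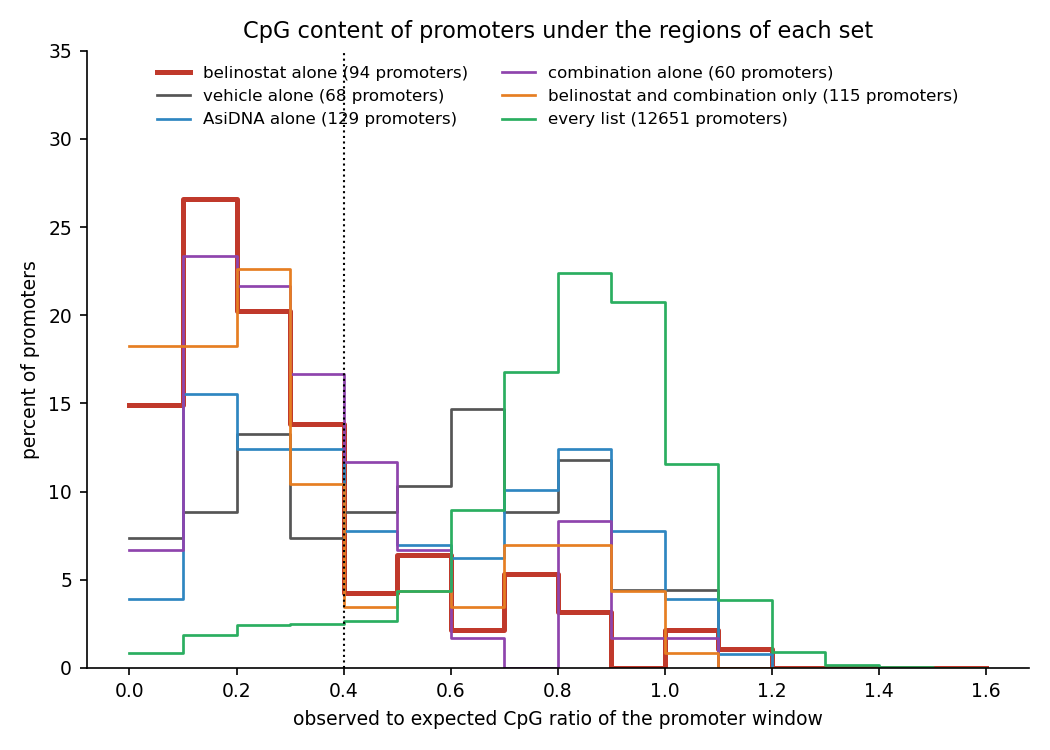
Share of promoters, in percent, by observed to expected CpG ratio in bins of 0.1, for promoter windows touched by the regions of each set; the dotted line marks 0.4. Promoters under belinostat-only regions pile up left of the line (75.5%), while those open in every list peak between 0.8 and 1.0. Members cannot overlap a peak of another list, so this gap is partly set by the rule.

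Of 4 short promoter motifs, 1 differed clearly between the members and the vehicle-only and AsiDNA-only sets. The letters GGGCGG, the core of the Sp1 site and itself a CpG motif, occurred on either strand in 25.5% (17.8 to 35.2) of the 94 belinostat-only promoters. The shares were 50.0% (38.4 to 61.6) and 50.4% (41.9 to 58.9) for vehicle-only and AsiDNA-only promoters. They were 33.3% (22.7 to 45.9) for combination-only ones and 40.9% (32.3 to 50.0) under regions of both belinostat-treated groups, and these intervals overlap that of the members. Promoters open in every list had 71.5% and all promoters 56.3%, and the gaps to these are again partly set by the rule. TATAAA, the TATA box, was in 14.9% (9.08 to 23.5) of belinostat-only promoters, in 10.3%, 9.30% and 20.0% of vehicle-only, AsiDNA-only and combination-only promoters, and in 9.46% of all promoters. TGACTCA, the AP-1 site, was in 9.57% (5.12 to 17.2), then 7.35%, 6.98% and 10.0%, and 4.01% of all. CCAAT was in 31.9% (23.4 to 41.9), then 23.5%, 22.5% and 36.7%, and 34.6% of all. For these 3 motifs the intervals of the members and of each other single-list set overlap. A match describes the letters of a window and is no evidence of binding.

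Other promoters were covered in large part. CAMTA1, a calmodulin-binding transcription activator, had all 300 bases of 1 promoter window in a member with a fold of 2.59 (percentile 1.38). GEMIN7, which serves in spliceosome assembly, had 285 bases covered (fold 3.71), SYT16, a synaptotagmin, 288 (3.64), and TRIM31, a ubiquitin ligase, 281 (3.01). The estrogen receptor gene ESR1 had 234 bases of a window covered (fold 4.11), ALOX5AP, which serves leukotriene synthesis, 234 (4.64), and KCNJ13, a potassium channel, 249 (4.4). Their CpG ratios ran from 0.0674 at TRIM31 to 0.321 at ESR1, all under 0.4. Promoters at 0.4 or more included, besides BEX1, those of LRRC56 (1.05), the liver factor FOXA3 (0.849), the zinc finger gene ZNF426 (0.704) and the protocadherin PCDHGB2 (0.517).

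Belinostat-only regions were weak and narrow peaks, which the rule favours. Their median fold enrichment was 3.48 (quartiles 3.01 and 4.08, highest 10.7), at percentile 12.5 of the list, and 155 (1.26%) reached percentile 50. Their median width was 244 bp (197 to 1133) against 408 bp over the belinostat list. They made up 8.88% of the 138937 belinostat peaks (8.74 to 9.03). The matching shares were 6.68% for vehicle-only regions (8701), 9.01% for AsiDNA-only regions (12461) and 5.97% for combination-only regions (8055), so every list had a set of this order of size. The median gap from a member to the nearest peak of another list was 3.37 kb, 1416 (11.5%) lay within 500 bp and 2144 (17.4%) over 10 kb away.

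At the edge of the rule, the closest members touched another list's peak without overlap. Members in LPAR1, a lysophosphatidic acid receptor gene (fold 3.48), and near MRPS33 (3.11) had a gap of 0 bp. The member at chr10:40390229-40390460 (3.55), whose nearest gene was ZNF33B, had a gap of 2 bp. In this paragraph near names the nearest protein-coding gene at any distance. Left out by an overlap of 1 bp were peaks near PLXNA4 (fold 2.88) and in DNAJB6 (2.69), and by 2 bp a peak near PDCD2 (3.94). Gaps of 50 bp or less held for 61 members, and 165 belinostat peaks were left out by an overlap of 50 bp or less.

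Members lay at gene ends less often than merged regions in general. Protein-coding genes were placed by the start and end in RefSeq's gene table, which gives no exons, so exon, intron and untranslated region are not distinguished. Within 1000 bp of a gene end lay 525 members (4.25%, 3.91 to 4.62), in gene bodies 5317 (43.1%, 42.2 to 44.0) and between genes 6501 (52.7%, 51.8 to 53.5). Over all merged regions the shares were 9.30%, 43.2% and 47.5%, and 13.9% of regions open in every list were at gene ends. The other single-list sets had 4.01% (vehicle), 4.56% (AsiDNA) and 3.69% (combination) at gene ends, and regions of both belinostat-treated groups had 4.42% (4.05 to 4.82), all close to the members. Counting long non-coding and other genes too, 7451 members (60.4%) were in an annotated gene. Inside host genes of known strand, 4651 pairs of a member and a gene were placed. Of these, 10.5% (9.69 to 11.5) lay in the 10% of the gene next to its transcription start. The share was 20.4% for regions open in every list. It was 13.5% for vehicle-only, 12.5% for AsiDNA-only and 11.5% for combination-only regions, and 10.2% for regions of both belinostat-treated groups.

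The single-list sets differed in how many regions lay over 500 kb from the nearest gene end. The distance runs to a gene's start or end, so the middle of a very long gene counts too. Among members 506 (4.10%, 3.76 to 4.46) were over 500 kb from any gene end, against 5.35% (5.24 to 5.45) of all merged regions. The share was 12.4% (11.7 to 13.1) of vehicle-only, 8.89% (8.40 to 9.40) of AsiDNA-only and 7.36% (6.81 to 7.95) of combination-only regions, and none of these intervals meets that of the members. Regions shared by both belinostat-treated groups and no other had 2.45% (2.18 to 2.75), and regions open in every list 3.71% (3.59 to 3.83). With peaks under a −log10 q of 5 removed the shares were 3.85% for belinostat, 12.2% for vehicle, 7.66% for AsiDNA and 5.87% for the combination. The median distance to a gene end was 28.7 kb for members and 29.1 kb for all merged regions, so members were near the general value, while vehicle-only, AsiDNA-only and combination-only regions had 43.7, 39.0 and 33.6 kb. A mean of 10.4 protein-coding genes lay in the 1 Mb around a member and 9.96 around any merged region, against 8.21, 8.58 and 9.42 around regions of those 3 sets.

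**Figure D2:**
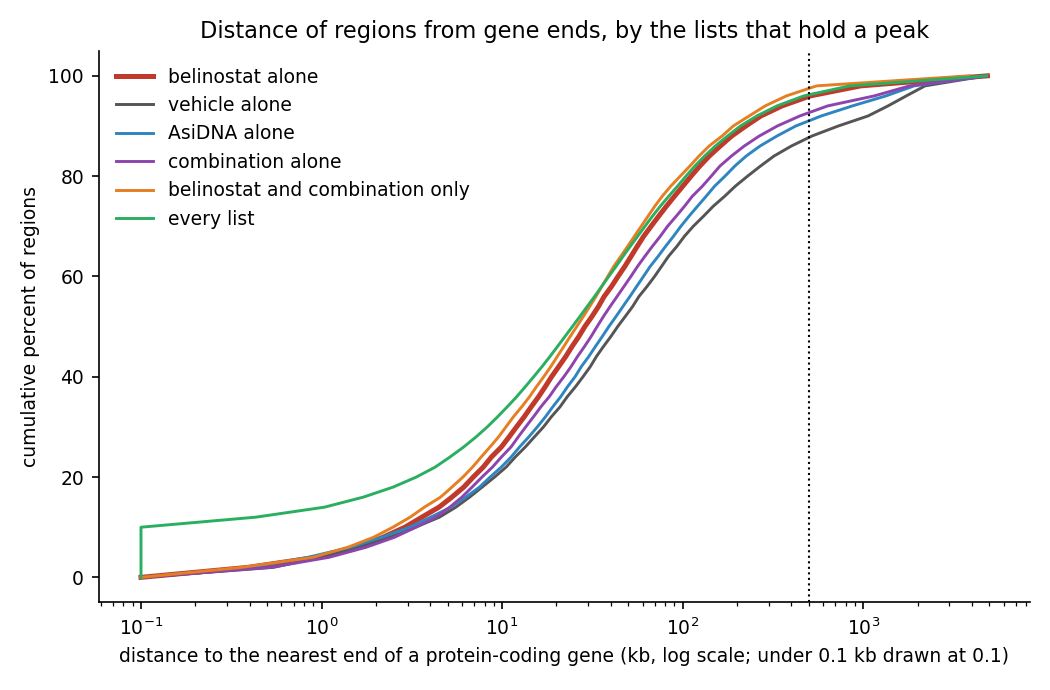
Cumulative percent of regions by distance to the nearest end of a protein-coding gene in kb (log scale), 1 line per set of regions; the dotted line marks 500 kb. The belinostat-only line runs left of the vehicle-only line, with medians of 28.7 and 43.7 kb, and 4.10% against 12.4% of regions lie right of the dotted line.

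The ratio of belinostat-only to vehicle-only regions varied by chromosome. Over all chromosomes there were 1.42 belinostat-only regions for each vehicle-only region. On chromosome 22 there were 2.32 (interval 1.84 to 2.94, 230 against 99) and on chromosome 19 there were 2.03 (1.70 to 2.41, 389 against 192), with 8.88 and 24.8 protein-coding genes per Mb. The X chromosome had 1.87 with 5.44 genes per Mb, so the order is not that of gene density alone. Chromosome 13, with the fewest genes, 2.96 per Mb, had 0.986 (0.853 to 1.14). The ratios of the other sets varied too. For AsiDNA-only regions the ratio was 1.43 over all chromosomes, from 1.13 on chromosome 13 to 1.84 on chromosome 4, with 1.42 on chromosome 22 and 1.44 on chromosome 19. For combination-only regions it was 0.926 over all chromosomes, from 0.69 on chromosome 13 to 1.49 on the X chromosome, with 1.25 on chromosome 22 and 1.08 on chromosome 19. As a share of the belinostat peaks of a chromosome, members ranged from 7.79% on chromosome 4 to 11.1% on chromosome 20. This share was 9.26% on chromosome 22, 9.41% on 19, 8.01% on X and 9.14% on 13, against 8.88% over all. Vehicle-only regions were 4.57%, 5.46%, 4.81% and 9.10% of the vehicle peaks there, against 6.68% over all. The high and low ratios thus went mainly with the vehicle-only counts.

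**Figure D3:**
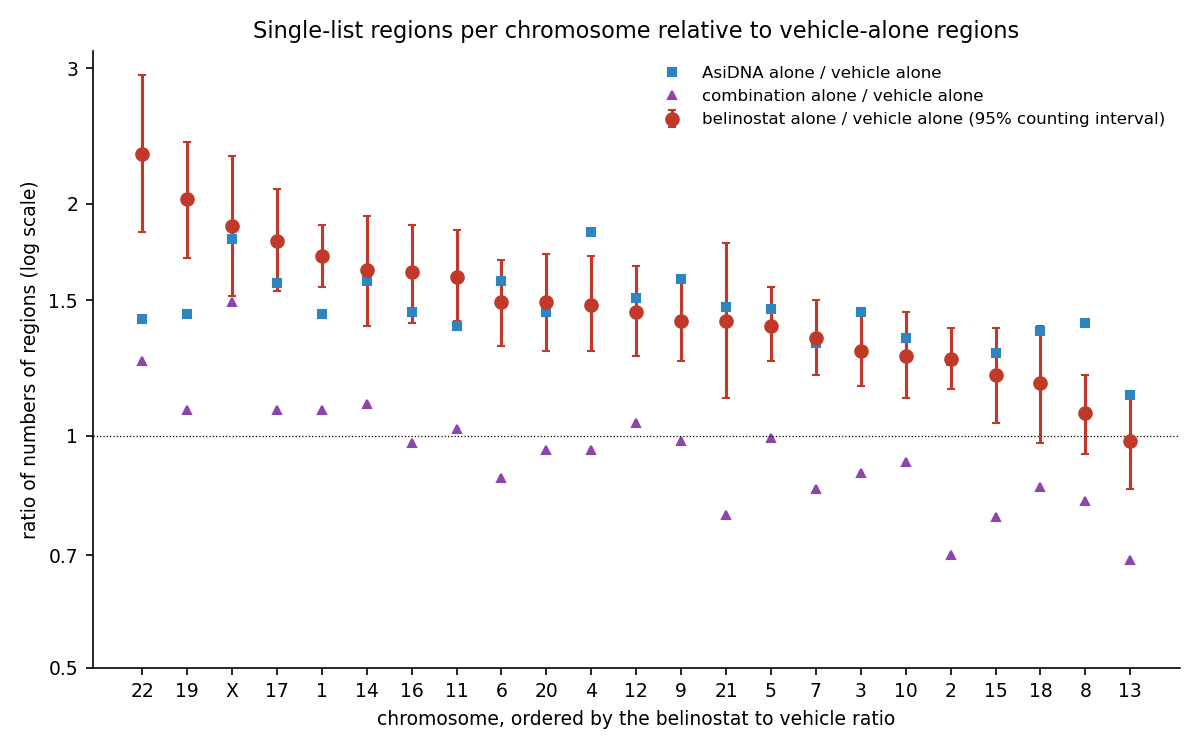
Ratio of the number of regions found in 1 treated list alone to the number found in vehicle alone (log scale), per chromosome; circles are belinostat with 95% counting intervals, squares AsiDNA, triangles the combination. Belinostat ratios run from 2.32 on chromosome 22 to 0.986 on chromosome 13, AsiDNA ratios from 1.84 on chromosome 4 to 1.13 on chromosome 13, and combination ratios from 1.49 on X to 0.69 on chromosome 13.

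Among members at gene ends the highest fold, at chr17:31294862-31295213, was 7.19 (percentile 60.2). This member lay inside NF1, which encodes the Ras inhibitor neurofibromin, and 215 bp from an end of OMG, the oligodendrocyte-myelin glycoprotein gene nested in it. The nearest peak of any other list was 13.4 kb away. Such a distance was not rare, as 17.4% of members lay over 10 kb from one, and the IRAK4 member named below lay 15.4 kb away. A member 438 bp from an end of the chemokine gene CCL8, chr17:34318594-34318997, had a fold of 6.26, with the nearest other peak 3.89 kb away. MYO7A, a myosin of sensory hair cells (5.77), HTR3D, a serotonin receptor subunit (5.66), and ITLN2, an intelectin (5.64), followed BEX1, CCL8 and SIGLEC16. The rest of the 10 were HBA2, an alpha globin gene, LOC124905051 and IRAK4, a kinase of Toll-like receptor signalling, all at 5.56. HBA2 has a near-identical copy beside it, so the assignment of that member is uncertain. With no genome sequence used, copies of the other named regions were not searched for, and their assignment is unchecked.

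In gene bodies the highest fold of all members was 10.7 (percentile 81.5), at chr13:69935086-69935438 in KLHL1, a Kelch-family gene of neurons, 2.13 kb from the nearest other peak. PARD3B, a cell polarity gene, held a member with 10.2 at chr2:204900918-204901228, and CHSY3, which builds chondroitin sulfate, one with 9.50 at chr5:130135503-130135818. RTN4, which encodes the neurite growth inhibitor Nogo, had 8.81 and SYN1, synapsin I of synaptic vesicles, 8.35. DAP3 of the mitochondrial ribosome (7.88), CDC27 of the anaphase-promoting complex (7.65), LOC102724250 (7.65) and DYM (7.45) followed. Between genes, the highest were 9.50 at chr5:35436480-35436743, 181 kb from SPEF2, and 9.27 at chr12:131682177-131682471, 17.6 kb from LOC100996701. Folds of the other 8 ranged from 7.88 to 8.58. One of them, chr12:17304924-17305409, was the most isolated of the 30 named regions: its nearest gene end, of LMO3, was 695 kb away and the nearest peak of another list 336 kb.

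All 30 regions ranked by this rule had a −log10 q above 10. With no other peak allowed within 500 bp, 27 stayed, and BEX1, MYO7A and HTR3D dropped out.

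Members were spread over the genome with little clustering. Of 2829 windows of 1 Mb that held a region of any list, 2472 held a member, with a median of 4 members over windows. The median gap between neighbouring members was 105 kb. Chains of 3 or more members with gaps of at most 20 kb numbered 268 and held 875 members (7.09%, 6.65 to 7.56), and 9012 members stood alone. Clustered shares were 6.45% (5.95 to 6.98) for vehicle-only, 5.79% (5.39 to 6.21) for AsiDNA-only and 3.77% (3.38 to 4.21) for combination-only regions. Regions of both belinostat-treated groups and no other had 7.93% (7.44 to 8.44). The AsiDNA-only set is nearly equal in size to the members, and its interval lies below theirs. Its largest cluster was bigger, however, with 18 regions, and the largest vehicle-only cluster held 10, against 7 for members. With lists cut to equal length the members' share was 3.82%, and with peaks at a −log10 q of 5 or more 3.19%. Shares of the other sets under these settings are not given, so it is not shown that the order of the sets holds there.

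Neighbouring regions were compared as well. The merged region next to a member was itself belinostat-only in 8.19% of cases (7.86 to 8.54), 1.22 times the 6.72% that such regions made up of all regions. The same ratio for a list with itself was 1.5 for vehicle-only, 1.15 for AsiDNA-only and 1.13 for combination-only regions. Beside members, combination-only regions were 1.2 times and regions of both belinostat-treated groups 1.09 times their overall share, while vehicle-only regions were 1.09 times and AsiDNA-only regions 1.01 times theirs. Regions of vehicle and AsiDNA without belinostat were 0.880 times and regions open in every list 0.925 times.

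The largest cluster, chr7:98776932-98810539, held 7 members in 33.6 kb, with folds from 2.46 to 4.92. The only other regions within it were 3 that were open in every list, and the nearest gene, TMEM130, was 36.0 kb away. Clusters of 5 members followed. At chr11:44695246-44711209, 15.1 kb from TSPAN18, 5 of 6 regions were members, and at chr20:32596689-32612716, 11.4 kb from NOL4L, 5 of 6 were, the other being shared with the combination. At chr13:112284695-112308745, 67.6 kb from SPACA7, 5 of 12 regions were members. At chr2:26484050-26514695 in OTOF, which encodes the otoferlin of hair cell synapses, 5 of 8 were. At chr6:169943585-169979063, 162 kb from ERMARD, all 5 regions were members. No vehicle-only region lay in 5 of these 6 clusters, and 1 lay in that near SPACA7. Such regions made up 4.74% of all merged regions. With so few regions besides the members, these counts show no lack of them. The median fold of members was 3.60 in the OTOF cluster and 3.06 to 3.25 in the others, against 3.48 over all members.

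**Figure D4:**
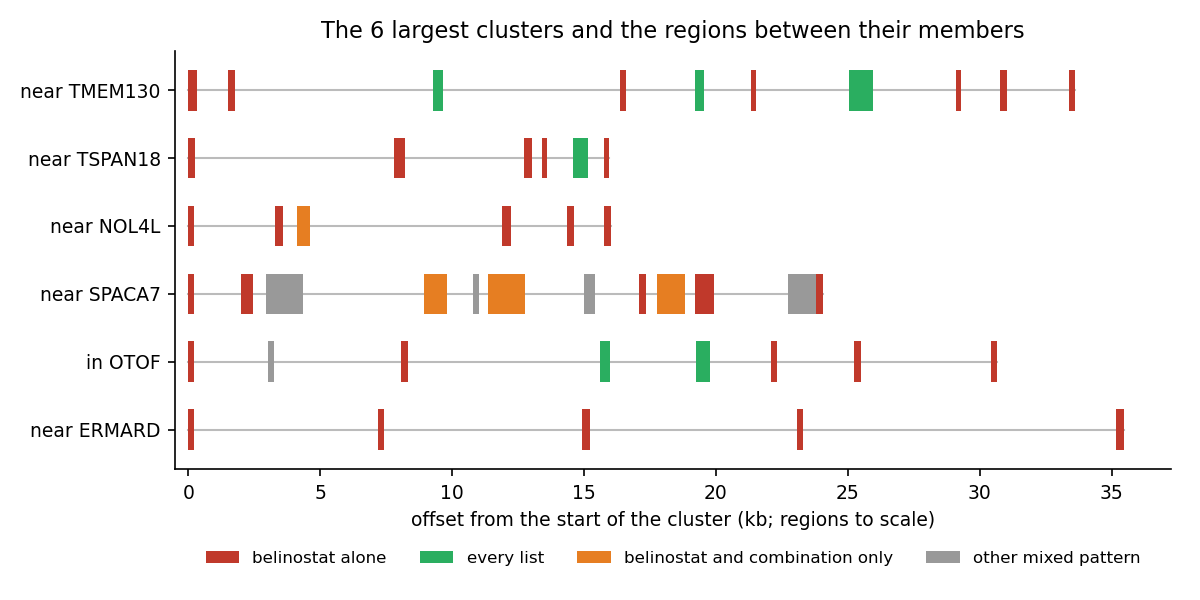
The 6 largest clusters, drawn to scale as offset in kb from the first member; red blocks are belinostat-only regions, green blocks regions open in every list, orange blocks regions of both belinostat-treated groups, grey blocks other patterns. The cluster near TMEM130 shows 7 members with 3 regions of every list between them, and that near ERMARD shows 5 members and nothing else.

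At the scale of 1 Mb the densest window, chr9:135000001-136000000, held 23 members of 109 regions (21.1%), with 3 vehicle-only, 9 AsiDNA-only and 13 combination-only regions. It holds 14 protein-coding genes, among them OLFM1, an olfactomedin of neurons, and PAEP, which encodes glycodelin. The window next to it, chr9:136000001-137000000, had 20 members of 129 regions, 1 vehicle-only region and 37 genes. At chr5:178000001-179000000, around COL23A1, 19 of 74 regions (25.7%) were members. At chr1:24000001-25000000, 22 of 161 regions (13.7%) were members, and at chr3:194000001-195000000, around HES1, 19 of 119 (16.0%) were. The window chr9:44000001-45000000 stood apart: its 22 members were 5.87% of 375 regions, it held no protein-coding gene, and it had 50 vehicle-only and 83 AsiDNA-only regions.

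Host genes were mostly long genes with a single member. A host gene held a member in its body or within 1000 bp of an end. There were 4035 among 19970 protein-coding genes (20.2%), holding 5842 members (47.3%), and 2863 had 1 member, 1172 had 2 or more and 97 had 5 or more. The median host was 79.8 kb long against 24.2 kb for all genes, and 48.7% of the longest genes (over 83.7 kb) were hosts against 3.81% of the shortest (under 6.49 kb). Per region the difference was small: members were 4.62% of the merged regions in the shortest genes and 6.05% in the longest, and 5.94% over all genes. AsiDNA-only regions had 4135 hosts, vehicle-only 2896 and combination-only 2930.

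KAZN, a cytolinker of cell junctions, held the most members, 13 of 110 regions (11.8%, 7.04 to 19.2), with folds from 2.37 to 5.56. COL23A1, a transmembrane collagen, stood out from genes of its size: 12 of its 33 regions (36.4%, 22.2 to 53.4) were members, with folds from 2.50 to 5.14. In COL23A1, 1 region was vehicle-only, 2 were AsiDNA-only, 2 combination-only, 5 shared by both belinostat-treated groups and 7 open in every list. Over all merged regions these sets made up 4.74%, 6.78%, 4.39%, 6.09% and 51.4%. The counts of the other single-list sets were thus near their overall shares. Regions shared by both belinostat-treated groups, 5 of 33, stood above theirs, and regions open in every list, 7 of 33, below. An excess particular to belinostat-only regions is therefore not shown. PRKG1, a cGMP-dependent kinase, also had 12 members, but of 173 regions (6.94%, 4.01 to 11.7), beside 18 vehicle-only and 20 AsiDNA-only regions. Here the members' share was close to the 5.94% of all genes. PDE4D, a cAMP phosphodiesterase, had 12 of 122 (9.84%).

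The transcription activator gene CAMTA1 followed with 11 of 91 regions (12.1%), GSE1 with 10 of 57 (17.5%) and the teneurin TENM2 with 10 of 102 (9.80%). TSPAN18, a tetraspanin, had 9 of 35 (25.7%, 14.2 to 42.1), with 1 vehicle-only region, and a cluster 15.1 kb outside it. ATP2B2, a calcium pump of the plasma membrane, had 9 of 56 (16.1%) and FGF14, which modulates sodium channels, 9 of 63 (14.3%). NHS, which shapes the actin cytoskeleton, and BABAM2, of a BRCA1 complex, had 8 each.

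Among the 2715 genes with 10 or more regions, the median share of members was 5.56%, the upper quartile 9.38% and the 99th percentile 26.7%. COL23A1 and SLC13A1, a sulfate transporter (4 of 11), were highest at 36.4%. PLOD2, which hydroxylates collagen lysines (6 of 18), PSMD1 of the proteasome (5 of 15), and the lymphocyte receptor KLRG1 (4 of 12) stood at 33.3%. BSN, which encodes the presynaptic scaffold bassoon, had 6 of 19 (31.6%, 15.4 to 54.0) and LOC400499 7 of 23 (30.4%). Among members whose own peak had a −log10 q of 5 or more, BSN and PSMD1 held 4 each, KAZN 3, COL23A1 2, and SLC13A1 and KLRG1 none.

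**Figure D5:**
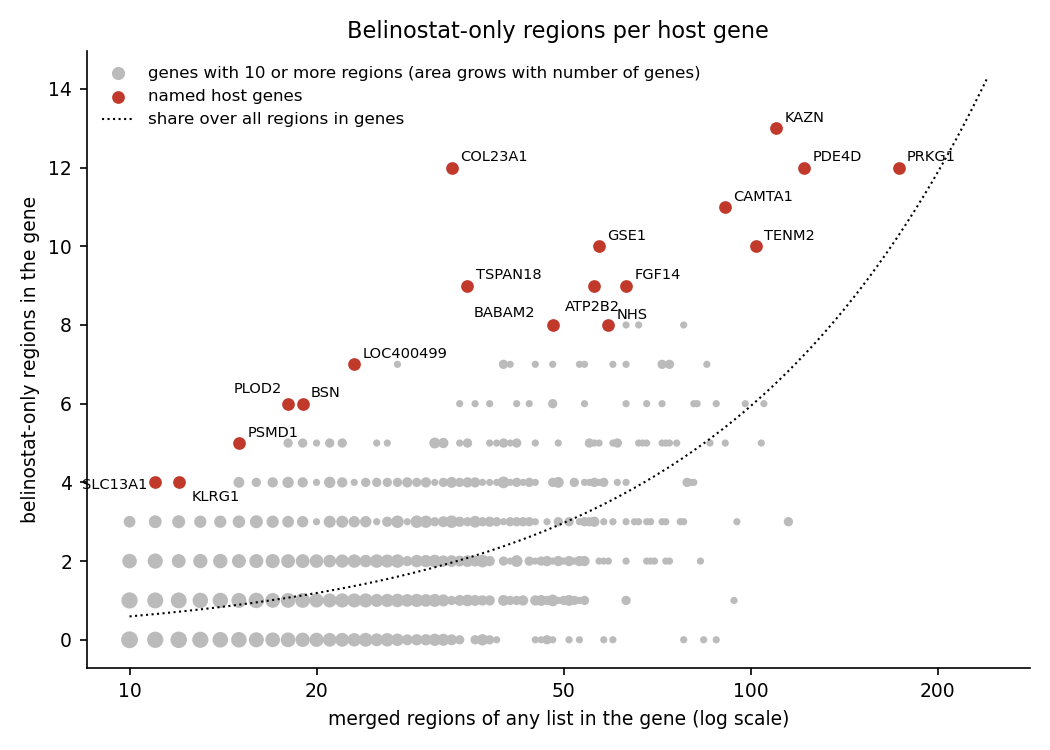
Number of belinostat-only regions against number of merged regions of any list (log scale) for protein-coding genes with 10 or more regions; grey points are genes with that pair of values, red points the named host genes, and the dotted line is the share over all genes, 5.94%. COL23A1, with 12 of 33 regions, lies far above the line, and PRKG1, with 12 of 173, close to it.

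A member lay within 1000 bp of an end of 547 protein-coding genes (2.74%). Of these, 215 had no peak of another list at either end, and 332 had one. The same split over all genes and for the other single-list sets is not given, so a trait particular to members is not shown. Strand was known for 419 of the 547 genes, of which 205 had the member at the transcription start, 221 at the transcription end and 7 at both. Members thus lay at both kinds of end in like numbers. Hairpins of 4 miRNA genes out of 1558 overlapped a member, namely MIR130A, MIR6076, MIR8071-1 and MIR378H, against 4, 5 and 2 hairpins for vehicle-only, AsiDNA-only and combination-only regions.

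Gene groups were read by their share of merged regions that were members, beside the 5.94% of all protein-coding genes, since long genes host more regions. Genes of synapse structure stood higher in this share: 24 of 38 adhesion and scaffold genes were hosts, and 62 of their 752 regions (8.24%, 6.48 to 10.4) were members. DLGAP2, a postsynaptic scaffold, had 7 of 27, SHANK2, another, 6 of 36, GPHN, which anchors inhibitory receptors, 6 of 81, and CNTNAP5 5 of 31. Of 40 glutamate and GABA receptor genes 14 were hosts, with 32 of 371 regions (8.63%, 6.18 to 11.9). GRIK4 had 4 of 24, GRM8 4 of 30, GABBR2 4 of 42 and GRIN2A 4 of 52. DLGAP2 and SHANK2 had 1 and 2 vehicle-only regions, while CNTNAP5 had 6 and GRIN2A 4. In the same order of genes, AsiDNA-only regions numbered 4, 1, 0 and 1, and combination-only regions 2, 6, 1 and 5. Per Mb of gene both groups stood lower than all genes. Members numbered 2.39 per Mb in adhesion and scaffold genes and 2.61 in receptor genes. All genes had 4.70 and the longest genes (over 83.7 kb) 3.97. Group shares of the other single-list sets are not given, so a trait particular to members is not shown.

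Other adhesion and excitability groups were close to all genes. Cadherins and protocadherins had 35 of 484 regions (7.23%, 5.25 to 9.89) with 14 of 34 genes as hosts, led by CDH23, a cadherin of hair cells (7 of 45), and by the neighbours CDH3 (5 of 18) and CDH1 (4 of 21). Axon guidance genes had 41 of 722 (5.68%) with 20 of 37 as hosts. Potassium channels had 30 of 486 (6.17%) with 18 of 39, among them KCNQ1 (4 of 24) and KCNE1 (3 of 8). Collagens, integrins and laminins had 52 of 802 (6.48%, 4.98 to 8.40) with 26 of 50, and COL23A1 gave 12 of these 52. Keratins, claudins and junction genes had 14 of 270 (5.19%) with 10 of 35.

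The fragile-site genes, which are very long and break under replication stress, stood lower: 44 of 1081 regions (4.07%, 3.05 to 5.42) were members although 16 of 28 genes were hosts. PDE4D gave 12 of them, MAGI2 5 of 55, PTPRG 4 of 79 and WWOX, a tumour suppressor, 4 of 81. Repair genes of end joining and homologous recombination had 10 of 265 (3.77%, 2.06 to 6.81) with 6 of 32 as hosts, including RAD51B (3 of 95) and TP53BP1 (2 of 14).

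The targets of the drug and its partners were ordinary. Of 11 classical histone deacetylases 4 were hosts, with 8 of 128 regions (6.25%, 3.20 to 11.8): HDAC9 had 5 of 61, and HDAC2, HDAC3 and HDAC4 had 1 each. Corepressor complex genes had 12 of 242 (4.96%) with 10 of 32 as hosts, among them RCOR2, where 2 of 3 regions were members. Acetyltransferases and bromodomain readers had 9 of 138 (6.52%) with 7 of 18, including KAT6B (2 of 16) and NCOA3 (2 of 17).

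Response and identity genes gave small counts. p53 targets had 9 of 101 regions (8.91%, 4.76 to 16.1) in 6 of 26 genes, with 3 of 12 in SESN1, a stress-induced inhibitor of growth signalling, and 2 of 9 in the nuclease gene AEN. Interferon-induced genes had 2 of 88 (2.27%, 0.625 to 7.91), in EPSTI1 and RIGI. AP-1 and early growth response genes had 3 of 79 (3.80%) in 3 of 20 genes, ATF3, FOSL2 and MAF. Cancer-testis and germline genes had 8 of 77 (10.4%, 5.36 to 19.2) in 6 of 31, including 1 of 2 in PRAME and in MAEL.

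Neural stem and glial genes had 11 of 176 regions (6.25%) in 5 of 24 genes, with 4 of 25 in NFIA, a factor of glial fate, and 2 of 7 in the astrocyte gene ALDH1L1. Receptor tyrosine kinases of glioma had 16 of 297 (5.39%) in 8 of 21, with 4 of 34 in EGFR and 4 of 18 in ROS1. Of the 18 groups, the interval lay above 5.94% for synaptic genes and transmitter receptors and below it for fragile-site genes, and it held 5.94% for the other 15. Genes of a group can overlap or lie side by side, so their regions are not independent.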

How the data were processed

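NicE-seq libraries of 16 U87 samples were grouped by the treatment field of the labels, and the labels name 1 peak list for the 4 libraries of each group. The submitters' processing notes name the hg38 build and MACS2, Bowtie2, Trim Galore 0.5.0, deepTools, Picard and SAMtools. The sources used here give neither their roles and options, nor any input or blacklist, nor how libraries were combined. The deposited fold enrichment is a ratio to local background, and the authors' p-value and q-value for each peak stand as −log10. These values are not scaled between lists and served only for ranking and filtering inside each list. Depth is unknown, so a longer list can reflect more reads, and no read count was used.

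Peaks on chromosomes 1 to 22 and X were merged at an overlap of 1 bp. Genes came from RefSeq's table and promoter windows from its promoter table (GRCh38.p14, the build of the files). With no genome sequence used, CpG content and motifs were read in promoter windows only. A low CpG ratio was under 0.4. Named regions and genes were, by fold percentile, 10 at gene ends, 10 in bodies and 10 between genes, the 12 genes with most members, the 8 with the highest share among genes with at least 10 regions, the 6 largest clusters, the 6 fullest 1 Mb windows, up to 4 genes for each of 18 gene lists, and 3 regions on either side of the threshold. A few genes that these rules choose are not reported here. Of 545 gene names in the lists, 544 matched. The members, lists and rules were chosen with earlier results of these data known. Shares have Wilson 95% intervals. With 1 list a group no test was made. The code was tested on 10000 simulated regions, of which 100% were recovered, and on chromosome 21 a direct search differed at 0 of 168 members. Alternatives varied the q threshold, list length, overlap, distance to other peaks, sequences, windows, cluster limits and the lists compared. Python 3.11.15, numpy 2.4.6, pandas 2.3.3, scipy 1.17.1, Biopython 1.88 and matplotlib 3.10.9 were used.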

Additional observations from a re-analysis of the deposited data

How the results depend on the processing

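No paired analysis was possible because each group has 1 peak list that stands for all its libraries, and leaving out a replicate was not possible for the same reason. Of 104 values under alternatives, 61 stayed within the 95% interval of the reported share or within 1.5 times the reported number, and 43 did not. The settings for the CpG share and for the share over 500 kb from a gene end were chosen after seeing the data. Among settings for gene ends, 500 bp gave 2.37% of members at ends, 44.1% in bodies and 297 genes, and 2000 bp gave 7.35%, 41.3%, 51.3% between genes and 967 genes. The clustered share was 2.25% at a gap of 10 kb, 24.4% at 50 kb, 27% for clusters of 2 or more and 1.98% for 4 or more, so it rests on its limits. With all lists cut to a −log10 q of at least 5 it was 3.19%, the median gap 164 kb, the share between genes 51.7% and the low-CpG share 59.1%. With that threshold for the belinostat peak alone there were 5517 members, 2254 host genes and 228 genes at ends. Of these members 44.6% were in bodies, 51.5% between genes, 1.25% in clusters and 3.48% over 500 kb from a gene end. Their median gap was 272 kb. Lists of equal length gave 3.85% at ends, 358 genes there, 3.82% in clusters and a gap of 157 kb. Counting only overlap of 50% as shared gave 8.09% in clusters, and a margin of 500 bp gave 5.95% in clusters and 3.91% at ends. Ignoring the combination list gave 23711 members, 6438 hosts, 1072 genes at ends and a gap of 50.9 kb. Then 45.2% were in bodies, 50.4% between genes, 19.5% in clusters and 3.34% over 500 kb from a gene end. Ignoring the AsiDNA list gave 9.28% in clusters, 4.64% over 500 kb from a gene end and a low-CpG share of 61.9%. Ignoring the vehicle list gave 8.24% in clusters and 5.08% over 500 kb from a gene end. Fewer or more peaks enter under these settings by construction, and what else moves the values was not tested. The share over 500 kb from a gene end was also compared in each of the 3 settings of q and list length. It stayed lower for belinostat-only regions than for the other single-list sets. For the 19 named host genes, 123 of 171 counts stayed within 1.5 times the reported one and 4 fell to 0.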
